A study of Homo sapiens with 4 samples.

Results

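TRIM proteins are a family of ubiquitin ligases named for a tripartite motif of a RING domain, 1 or more B-boxes and a coiled coil. The genes described here are the 72 of 24424 listed gene symbols that consist of TRIM, a number and at most 1 further letter. RNA was sequenced from BEAS-2B, a line of human bronchial epithelial cells immortalised with viral T antigen, in 4 libraries with 1 library per group. The control cells had no treatment, and the LPS cells received lipopolysaccharide, the bacterial ligand of the receptor TLR4, for 2 h. The siOCLN+LPS cells were transfected with siRNA against occludin, a tight junction protein, for 24 h and then given LPS for 2 h. The wtOCLN+LPS cells were transfected with wild-type occludin for 24 h and then given LPS for 2 h. All 4 libraries carry the genotype label wild type, and no transfection or mock transfection is mentioned for control or LPS, so the transfection and what was transfected cannot be told apart in any comparison with those libraries.

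In the family's textbook account the RING domain recruits an enzyme loaded with ubiquitin, and the C-terminal domain, often a PRY/SPRY domain, chooses the substrate. Several members are induced by interferon and restrict viruses or act on the RNA and DNA sensors. Others set the strength of TLR and NF-kB signalling, repress chromatin with a PHD finger and bromodomain, or organise microtubules and muscle fibres. The interferon-induced members are known from many epithelial and immune cells.

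The libraries held 13867494 to 17500031 counts. Levels are in CPM, a count divided by its library total and multiplied by 1000000, and 1 count corresponded to 0.0571 to 0.0721 CPM. OCLN, the targeted gene, was at 55.4 CPM in control and 50.4 in LPS, against 21.0 in siOCLN+LPS and 29.7 in the wtOCLN+LPS-labelled library. The last value goes against its label, so that library is called by its label and no direction drawn from it is one of raised occludin. Whether the labels of the transfected libraries were exchanged, and whether transfected occludin is counted, was not tested, and this bears on siOCLN+LPS as well. Epithelial markers were present, with KRT8 at 372 to 976 CPM and KRT18 at 254 to 535 CPM, although EPCAM (1.26 to 2.67 CPM) and KRT14 (0.458 to 1.07 CPM) were low. SCGB1A1 and FOXJ1, markers of secretory and ciliated airway cells, were at 0 counts in all 4 libraries, as was the leukocyte marker CD3E. Intervals given below are exact 95% intervals for counting error, and since each group is a single library, no difference has a replicate check or a test.

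The family split into expressed and silent members. Of the 72 genes, 45 reached 1 CPM in at least 1 library and 39 reached it in all 4. Another 11 had a count but stayed under 1 CPM in every library: TRIM9, TRIM10, TRIM50, TRIM54, TRIM55, TRIM60, TRIM61, TRIM63, TRIM67, TRIM69 and TRIM72, with 0 to 13 counts per library. The other 16 had 0 counts in all 4 libraries, which allows a level of up to 0.171 to 0.216 CPM (3 counts, a one-sided limit for counting error) in a library. These 16 were TRIM31, TRIM40, TRIM42, TRIM43, TRIM43B, TRIM48, TRIM49, TRIM49B, TRIM49C, TRIM51, TRIM64, TRIM64B, TRIM64C, TRIM71, TRIM73 and TRIM77. Of 21 members known from muscle, neurons, testis or the early embryo, 13 were among the 16, and TRIM46 was the one of these 21 at 1 CPM or more. The 72 genes together took 2468 CPM in control and 2527 in LPS, against 2262 in siOCLN+LPS and 2439 in the wtOCLN+LPS-labelled library. The family's share of the RNA thus stayed within a narrow range while single members differed more widely between libraries.

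Levels were compared between genes as CPM per kb of the longest annotated transcript. TRIM28, the corepressor that KRAB zinc finger proteins recruit to chromatin, stood first at 136 to 154 CPM per kb in the 4 libraries. TRIM47, a member with a SPRY domain, came second at 42.8 to 84.7 CPM per kb. TRIM37, a ligase of peroxisomes and centrosomes, stood at 27.5 to 39.8 CPM per kb, and TRIM25, which ubiquitinates the RNA sensor RIG-I, at 21.4 to 42.4. These 2 overlapped, so that their order depended on the library. TRIM44, which lacks a RING, TRIM26 and TRIM62 followed with means of 20.1, 19.7 and 19.3 CPM per kb, and TRIM22 was eighth with a range of 7.43 to 37.1. At the other end TRIM15, TRIM17, TRIM6 and TRIM58 had means of 0.172 to 0.349 CPM per kb.

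**Figure D1:**
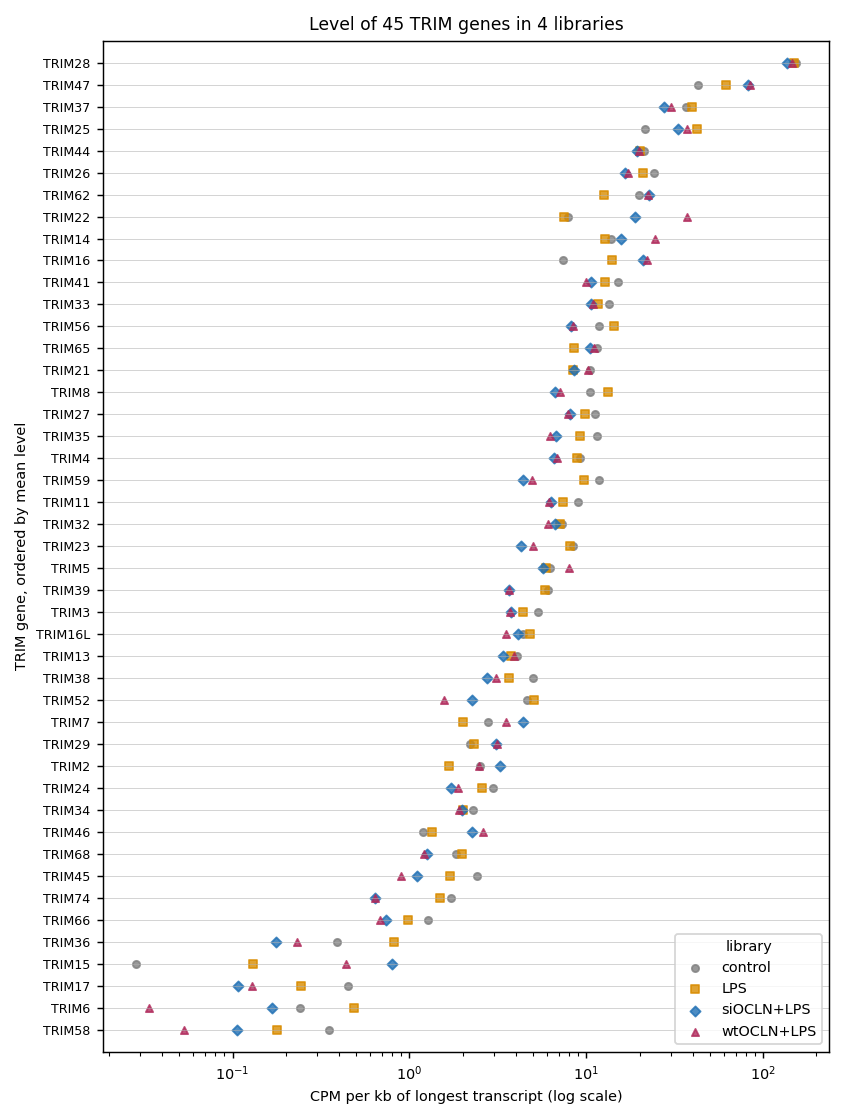
Level of the 45 TRIM genes that reached 1 CPM in at least 1 library, on a log axis in CPM per kb of the longest transcript, 1 point per library and genes ordered by their mean. TRIM28 stands alone at 136 to 154 CPM per kb, and the points of TRIM22 and TRIM16 lie far apart while those of TRIM44 coincide.

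The comparison of LPS with control asks what 2 h of LPS does to cells with no transfection in their labels. No TRIM gene lay 2-fold apart on the log2(CPM + 1) scale: 0 of 44 genes tested (1 CPM or more in either library) were higher and 0 lower, where 1.60% and 0.207% of all 13551 genes were. The median log2 ratio was -0.10 over the TRIM genes and -0.09 over all genes. By the looser measure of a counting interval that excludes equal levels, 7 TRIM genes were higher (15.9%) and 17 lower (38.6%), against 9.11% and 31.0% of all genes. The higher ones were TRIM8, TRIM16, TRIM25, TRIM36, TRIM37, TRIM47 and TRIM56.

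TRIM25 came nearest to 2-fold in this comparison. It was at 122 CPM in control (117 to 128), 243 in LPS (235 to 252), 189 in siOCLN+LPS (183 to 196) and 212 in the wtOCLN+LPS-labelled library (205 to 219). The 3 libraries with LPS all lay above control, and LPS was 1.99-fold above it (1.88 to 2.1). Larger CPM ratios among the genes tested were those of TRIM36 (2.12, 1.29 to 3.55) and TRIM6 (2.03, 0.985 to 4.36), on 13 to 48 counts. With median ratio, upper quartile or TMM scaling TRIM25 passed 2-fold.

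TRIM16, a member without a RING that takes part in autophagy of damaged lysosomes, was at 24.8 CPM in control (22.4 to 27.4), 46.5 in LPS (43.0 to 50.2), 70.0 in siOCLN+LPS (66.1 to 74.0) and 73.6 in the wtOCLN+LPS-labelled library (69.6 to 77.7). It was 1.88-fold higher in LPS than in control (1.65 to 2.13), and the transfected libraries lay higher still, 1.5-fold (1.37 to 1.66) and 1.58-fold (1.44 to 1.74) above LPS. Its near copy TRIM16L, a transcribed pseudogene in RefSeq, had another order, at 13.9, 15.4, 13.1 and 11.1 CPM in the same order. How the counting divided reads that match both is not given in the sources used here, so both values are uncertain.

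TRIM47 had the same order of libraries, at 96.9 CPM in control (92.1 to 102), 139 in LPS (133 to 146), 186 in siOCLN+LPS (179 to 192) and 192 in the wtOCLN+LPS-labelled library (186 to 199). It was 1.44-fold higher in LPS than in control (1.35 to 1.54). Control was the lowest library for both TRIM16 and TRIM47, and the transfected libraries differed by less than counting error for each.

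TRIM62, a member linked to epithelial polarity and TLR4 signalling, had the lowest log2(CPM + 1) ratio to control in LPS. It stood at 68.3 CPM in control (64.3 to 72.5), 43.5 in LPS (40.1 to 47.1), 77.4 in siOCLN+LPS (73.3 to 81.6) and 76.5 in the wtOCLN+LPS-labelled library (72.4 to 80.7). LPS alone was low, 1.57-fold below control (1.42 to 1.74). The transfected libraries, which also had LPS, were 1.78-fold (1.62 to 1.96) and 1.76-fold (1.60 to 1.94) above LPS.

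**Figure D2:**
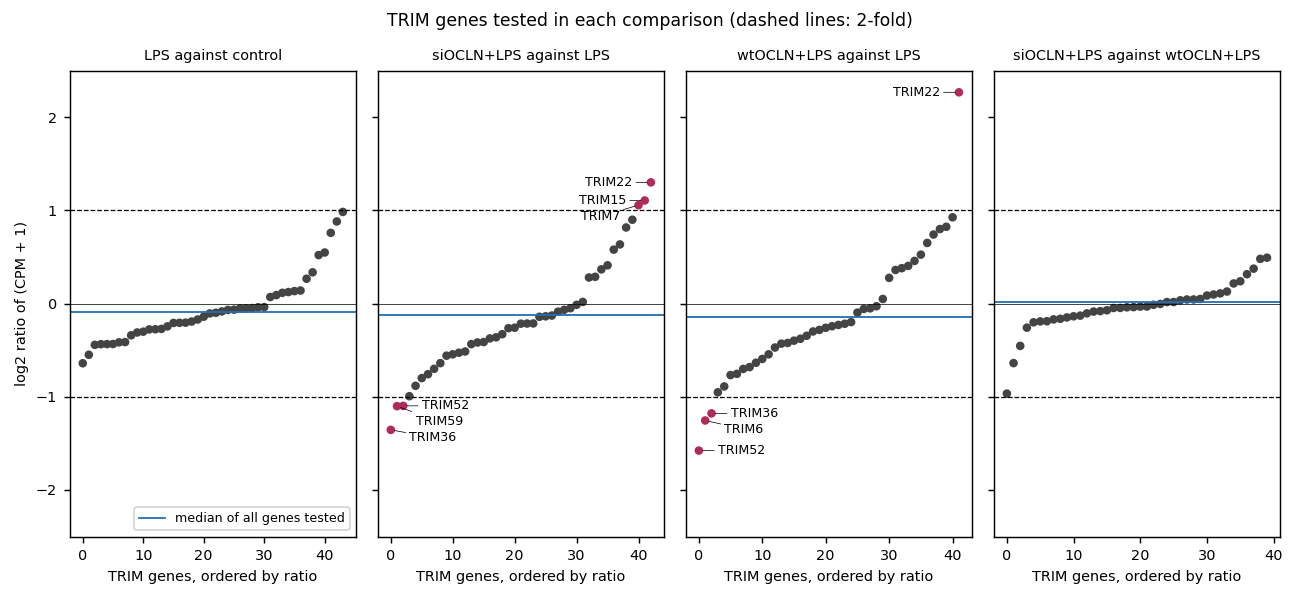
log2 ratio of (CPM + 1) for each TRIM gene tested in the 4 comparisons, ordered by ratio, with dashed lines at 2-fold and a blue line at the median of all genes tested. Named red points are the genes at least 2-fold apart; TRIM22 in wtOCLN+LPS against LPS, at 2.27, is the farthest.

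Both transfected libraries were compared with the same LPS library, so these comparisons are not independent and their values are set side by side. In siOCLN+LPS, 3 of 43 TRIM genes tested were at least 2-fold higher than in LPS (7.0%, against 3.32% of all 13505 genes): TRIM22, TRIM7 and TRIM15. Another 3 were at least 2-fold lower (TRIM36, TRIM52 and TRIM59), against 3.92% of all genes. In the wtOCLN+LPS-labelled library, 1 of 42 was at least 2-fold higher (TRIM22; 3.32% of all 13493 genes were) and 3 were lower (TRIM36, TRIM52 and TRIM6; 3.69% of all genes). With so few genes, none of these shares is read as a difference from the background. The median log2 ratio of the TRIM genes was -0.22 in siOCLN+LPS and -0.25 in the wtOCLN+LPS-labelled library, where all genes had -0.13 and -0.15. With TMM scaling the medians of all genes moved to 0.01 in both, and those of the TRIM genes to -0.08 in both. Counting intervals excluded equal levels for 11 higher and 25 lower TRIM genes in siOCLN+LPS (24.7% and 42.5% of all genes) and for 12 higher and 25 lower in the wtOCLN+LPS-labelled library (22.8% and 44.0%).

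Interferon-inducible TRIM genes did not differ in 1 direction. Of 10 listed members 9 were tested. Of these, 1 was at least 2-fold higher than LPS in each transfected library (3.32% of all genes were in each) and none lower (3.92% in siOCLN+LPS and 3.69% in the other). Their median log2 ratio was -0.05 in siOCLN+LPS and -0.06 in the wtOCLN+LPS-labelled library, values above the medians of all genes. Both became positive with TMM, median ratio and upper quartile scaling (0.09 and 0.08 with TMM). Counting intervals placed TRIM14 and TRIM22 above LPS in both transfected libraries, and TRIM5 and TRIM21 in the wtOCLN+LPS-labelled library alone. TRIM25, TRIM26, TRIM38 and TRIM56 lay below LPS in both. By the same measure 24.7% of all genes lay above LPS and 42.5% below it in siOCLN+LPS, and 22.8% and 44.0% in the wtOCLN+LPS-labelled library.

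TRIM22, which represses transcription of several viruses, had the largest log2(CPM + 1) ratio of the TRIM genes tested. It was at 23.6 CPM in control (21.3 to 26.1), 22.2 in LPS (19.8 to 24.8), 56.2 in siOCLN+LPS (52.7 to 59.8) and 111 in the wtOCLN+LPS-labelled library (106 to 116). Control and LPS overlapped, and the transfected libraries stood above them and apart from each other. Against LPS it was 2.53-fold higher in siOCLN+LPS (2.22 to 2.88) and 4.99-fold higher in the wtOCLN+LPS-labelled library (4.42 to 5.64). It was 1.97-fold lower in siOCLN+LPS than in that library (1.82 to 2.13).

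TRIM14, an adaptor without a RING that works with the mitochondrial protein MAVS, was at 61.2 CPM in control (57.4 to 65.2), 57.1 in LPS (53.2 to 61.2), 69.9 in siOCLN+LPS (66.1 to 74.0) and 109 in the wtOCLN+LPS-labelled library (105 to 114). The order was that of TRIM22 with smaller steps. The folds against LPS were 1.22 (1.12 to 1.34) and 1.92 (1.76 to 2.08). With median ratio, upper quartile or TMM scaling TRIM14 passed 2-fold in the wtOCLN+LPS-labelled library.

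TRIM5, which binds the capsids of retroviruses, was at 19.7 CPM in control and 18.7 in LPS, against 18.1 in siOCLN+LPS and 25.1 in the wtOCLN+LPS-labelled library. The last was 1.34-fold above LPS (1.15 to 1.57) and the others overlapped. TRIM21, the cytosolic receptor for antibody-coated viruses, was at 20.1, 16.2, 16.4 and 19.8 CPM in the same order. The wtOCLN+LPS-labelled library was 1.22-fold above LPS (1.03 to 1.45) and overlapped control.

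TRIM34, a close relative of TRIM5, was at 5.73, 4.98, 4.92 and 4.74 CPM in control, LPS, siOCLN+LPS and the wtOCLN+LPS-labelled library, with every interval overlapping the others. TRIM26 was at 84.0, 72.8, 57.7 and 59.7 CPM, and TRIM38, which dampens TLR signals, at 47.0, 34.5, 25.7 and 29 CPM. For both genes control was highest and the transfected libraries lowest. TRIM56, which acts on the DNA-sensing pathway of cGAS and STING, was at 130 CPM in control (124 to 136), 156 in LPS (150 to 163), 89.5 in siOCLN+LPS (85.1 to 94.0) and 91.5 in the wtOCLN+LPS-labelled library (87.1 to 96.1). It was 1.75-fold (1.64 to 1.87) and 1.71-fold (1.60 to 1.82) lower there than in LPS. TRIM69 had 7, 6, 6 and 1 counts and was not tested.

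TRIM6, TRIM34, TRIM5 and TRIM22 lie side by side on chromosome 11, and the neighbours of TRIM22 did not share its order of libraries. TRIM5 differed from LPS by less than counting error in siOCLN+LPS and TRIM34 in both transfected libraries, and TRIM6 was lower in both. The readthrough symbol TRIM6-TRIM34, which shares exons with TRIM6 and TRIM34, had 0 to 1 counts, and how shared reads were assigned is not given.

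**Figure D3:**
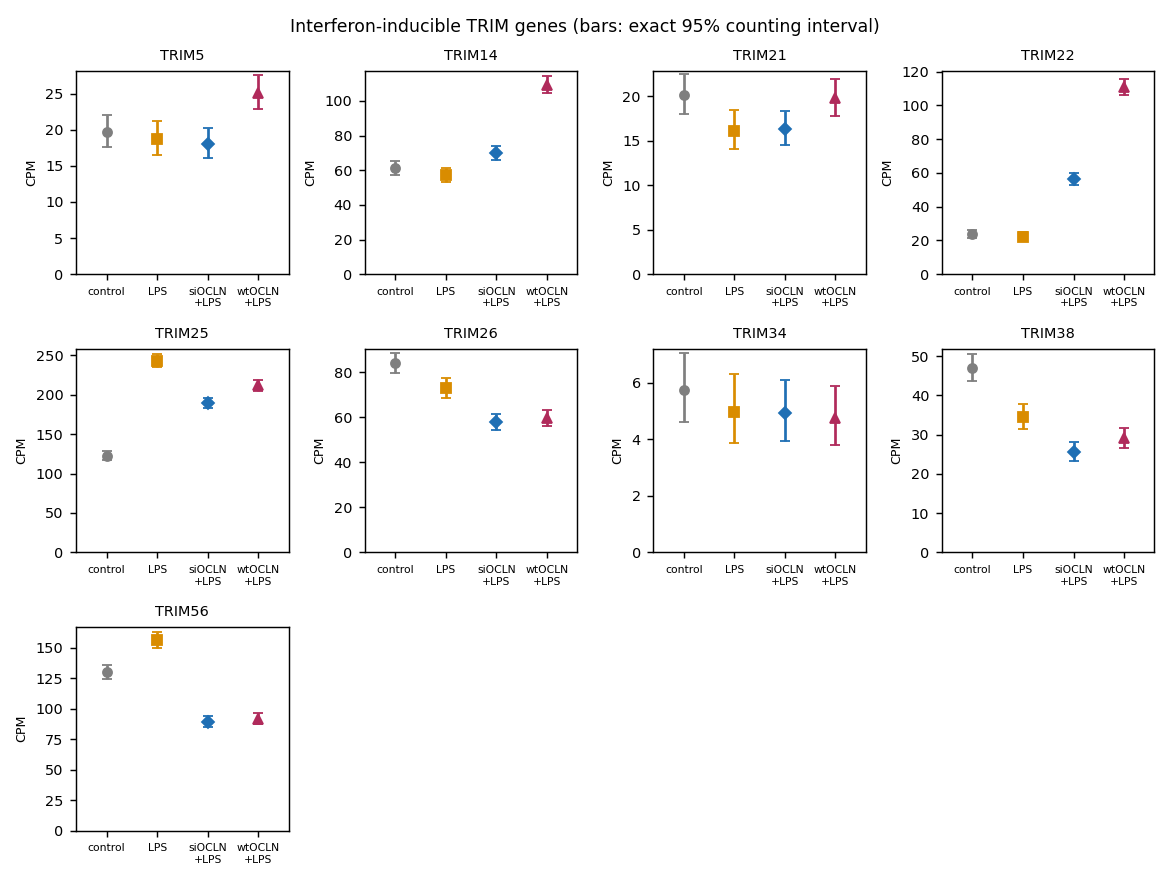
CPM of 9 interferon-inducible TRIM genes in the 4 libraries, with exact 95% counting intervals and axes from 0. TRIM22 and TRIM14 are highest in the wtOCLN+LPS-labelled library (111 and 109 CPM), TRIM25 and TRIM56 in LPS (243 and 156 CPM), and TRIM26 and TRIM38 in control (84.0 and 47.0 CPM).

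Interferon acts on promoters through the interferon-stimulated response element, bound by a complex that includes STAT2 and IRF9. Its core, searched as GAAA, any 2 bases and GAAA on both strands, was looked for in RefSeq windows of 300 bases (250 before to 50 from the start site on, build GRCh38.p14), where 3.57% of 35116 windows hold it. Windows were found for 56 TRIM genes and for 9 of the 10 interferon-inducible ones, TRIM22 being the one without. The core was present in 10 of the 56 and in 6 of the 9. A gene was counted if any of its windows matched, and some genes have several windows. Shares of genes and shares of windows, here and for the motifs below, are thus unlike measures. The stretches around it are printed 5′ to 3′ on the gene's strand for these 6 genes. TRIM34 had overlapping intervals in all libraries and TRIM69 was not tested, so no order of libraries is given for them. Capitals mark the core, or 2 overlapping cores in TRIM21 and TRIM26.
TRIM14: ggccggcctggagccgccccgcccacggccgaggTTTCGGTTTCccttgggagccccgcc
TRIM5: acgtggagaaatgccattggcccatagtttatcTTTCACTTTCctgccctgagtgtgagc
TRIM21: ctgagcgGAAACTGAAAGTGAAAtag
TRIM34: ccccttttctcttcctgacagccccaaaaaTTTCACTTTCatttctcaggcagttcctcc
TRIM26: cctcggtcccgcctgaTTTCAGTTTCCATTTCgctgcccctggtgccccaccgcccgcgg
TRIM69: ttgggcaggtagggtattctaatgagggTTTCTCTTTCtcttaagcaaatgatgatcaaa

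The stretch of TRIM14 lies at chr9:98119223-98119282 on the minus strand, with its core from position -26, counted from the start site. That of TRIM5 is at chr11:5685075-5685134 on the minus strand, with its core from position -27. That of TRIM21 is at chr11:4393667-4393692 on the minus strand, with its cores after the start. TRIM34 is shown at chr11:5624881-5624940 on the plus strand, TRIM26 at chr6:30213557-30213616 on the minus strand and TRIM69 at chr15:44736438-44736497 on the plus strand. TRIM5 and TRIM34 hold the identical core TTTCACTTTC, and the GAAA letters of the search read TTTC on this strand. TRIM5 was 1.34-fold above LPS in the wtOCLN+LPS-labelled library (1.15 to 1.57). TRIM34, at 4.98 CPM in LPS and 4.74 in that library, had a ratio of 0.953 (0.684 to 1.33). These intervals overlap, and whether the core bears on either gene was not tested. TRIM2, TRIM16, TRIM44 and TRIM64C, which are outside the interferon list, hold a core too. A second motif of the pathway, the gamma-activated site searched as TTC, any 3 bases and GAA on both strands, was in 12 of the 56 genes and in 0 of the 9 (7.66% of all windows). The NF-kB letters, GGG, any 3 bases and TTCC on both strands, were in TRIM31 and TRIM46 alone (6.52% of all windows). A match in such a window is a description of letters and shows no binding.

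The genes of the interferon pathway around these ligases were read as background to TRIM22. Among its transcription factors, IRF9 was at 29.3, 24.3, 47.3 and 80.5 CPM in the order control, LPS, siOCLN+LPS and the wtOCLN+LPS-labelled library, and IRF7 at 30.5, 26.6, 38.2 and 86.7 CPM. IRF1 had another order, at 89.1, 463, 1036 and 1009 CPM, and STAT2 spanned 82.4 to 121 CPM. For IRF9, IRF7 and TRIM22 alike the transfected libraries were the highest and the wtOCLN+LPS-labelled library stood above siOCLN+LPS.

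Among members that act on nucleic acid sensors, 9 of 11 were tested in siOCLN+LPS. Of these, 1 was at least 2-fold higher than LPS and none lower (3.32% and 3.92% of all genes were). In the wtOCLN+LPS-labelled library 8 were tested, with none in either direction (3.32% and 3.69% of all genes). The median log2 ratios were -0.09 and -0.21, where all genes had -0.13 and -0.15. TRIM15, also a focal adhesion protein, was the one past 2-fold, on few reads. It had 1 count in control and 4 in LPS, against 31 in siOCLN+LPS and 17 in the wtOCLN+LPS-labelled library, and siOCLN+LPS was 6.15-fold above LPS (2.17 to 24.0 on these few counts). TRIM65, a ligase of the RNA sensor MDA5, was at 39.6, 29.4, 35.9 and 38.1 CPM in the same order and lowest in LPS. TRIM4, another ligase of RIG-I, was at 31.0, 30.1, 22.3 and 23.0 CPM and lower in the transfected libraries. TRIM32, a ligase of STING, spanned 22.5 to 27.3 CPM and TRIM44, a stabiliser of MAVS, 250.2 to 274 CPM. TRIM31 and TRIM40 were at 0 counts.

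The partners of these ligases (29 listed substrates, adaptors and ubiquitin-conjugating enzymes, all tested) held 1 gene that was 2-fold or more above control in LPS (1.60% of all genes were) and none below. That gene was IKBKE, a kinase of the interferon pathway, at 14.8 CPM in control and 43.4 in LPS. In siOCLN+LPS none lay 2-fold from LPS, and 4 were higher in the wtOCLN+LPS-labelled library (3.32% of all genes were) with none lower. These 4 were DDX58 (RIG-I itself), IFIH1 (MDA5), IRF7 and UBE2L6, the conjugating enzyme for ISG15. DDX58 was at 20.3, 39.6, 54.0 and 90.9 CPM in the order control, LPS, siOCLN+LPS and the wtOCLN+LPS-labelled library, and IFIH1 at 35.7, 30.4, 52.7 and 97.1 CPM. TRIM25, the ligase of RIG-I, did not have that order, being highest in LPS.

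Members that act on TLR and NF-kB signalling were mostly lower than LPS in the transfected libraries, and in LPS mostly lower than control. Against control, counting intervals placed 6 of 9 lower in LPS and 1 higher. Of all genes 31.0% were lower and 9.11% higher, and of all TRIM genes tested 38.6% and 15.9%. The list's median log2 ratio was -0.27 (all genes -0.09). Of 9 tested against LPS, 1 was at least 2-fold lower than LPS in siOCLN+LPS and none higher (3.92% and 3.32% of all genes were). None was 2-fold apart in the wtOCLN+LPS-labelled library (3.69% of all genes were lower and 3.32% higher). Counting intervals placed 6 below LPS in each transfected library, where 42.5% and 44.0% of all genes lay below it. Of all TRIM genes tested, 58.1% and 59.5% lay below it, so this is not particular to the list. The median log2 ratio was -0.41 in siOCLN+LPS and -0.30 in the wtOCLN+LPS-labelled library, where all genes had -0.13 and -0.15.

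TRIM59, a membrane-anchored member, was at 54.2 CPM in control (50.6 to 57.9), 44.7 in LPS (41.3 to 48.4), 20.3 in siOCLN+LPS (18.3 to 22.5) and 22.6 in the wtOCLN+LPS-labelled library (20.5 to 25.0). It was 2.20-fold lower than LPS in siOCLN+LPS (1.93 to 2.51) and 1.98-fold lower in the wtOCLN+LPS-labelled library (1.74 to 2.25), so the 2-fold line separated 2 values whose intervals overlap. With TMM scaling its log2 ratio in siOCLN+LPS was -0.96, just short of 2-fold too. Its exons overlap those of SMC4 on the opposite strand by up to 1306 bases in GENCODE 29. SMC4 was at 637, 573, 432 and 417 CPM, and as the strand setting of the counting is not given, reads of the 2 genes cannot be told apart. Other members overlap a gene on the opposite strand too, among them TRIM8 (up to 1349 bases), TRIM47 (702), TRIM25 (460) and TRIM52 (308). The same limit applies to them.

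TRIM8, which raises NF-kB signalling, was highest in LPS at 97.1 CPM (91.9 to 102), against 76.7 in control (72.5 to 81.1), 48.2 in siOCLN+LPS (45 to 51.6) and 51.9 in the wtOCLN+LPS-labelled library (48.6 to 55.4). It was 1.27-fold higher in LPS than in control (1.17 to 1.37), and 2.01-fold (1.84 to 2.20) and 1.87-fold (1.72 to 2.03) lower than LPS in the transfected libraries. On the log2(CPM + 1) scale the first of these was -0.99 and so just short of 2-fold.

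TRIM23, which carries a GTPase domain of the ARF type, was at 35.2, 34.0, 18.0 and 20.8 CPM in control, LPS, siOCLN+LPS and the wtOCLN+LPS-labelled library. Control and LPS overlapped, and the transfected libraries were 1.89-fold (1.64 to 2.19) and 1.63-fold (1.42 to 1.88) below LPS. TRIM45 was at 8.50, 5.99, 3.89 and 3.14 CPM in the same order. TRIM27 was at 78.4, 68.4, 56.8 and 55.4 CPM, and TRIM13, an endoplasmic reticulum protein, spanned 24.5 to 29.3 CPM. TRIM62, described above, was above LPS in both transfected libraries, and TRIM21 in the wtOCLN+LPS-labelled library alone.

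TRIM52, in none of the role lists, had the lowest log2(CPM + 1) ratio to LPS in the wtOCLN+LPS-labelled library, at -1.58. It was at 22.1 CPM in control (19.8 to 24.5), 24.2 in LPS (21.6 to 26.9), 10.8 in siOCLN+LPS (9.27 to 12.4) and 7.43 in the wtOCLN+LPS-labelled library (6.21 to 8.82). Control and LPS overlapped and the transfected libraries lay below them. It was 2.25-fold lower than LPS in siOCLN+LPS (1.87 to 2.70) and 3.25-fold lower in the wtOCLN+LPS-labelled library (2.65 to 4.01). With TMM scaling its log2 ratio in siOCLN+LPS was -0.96, just short of 2-fold. Its antisense gene TRIM52-AS1 was at 6.61, 5.70, 5.84 and 5.31 CPM, with all intervals overlapping.

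TRIM7, which binds the glycogen primer glycogenin, was higher in the transfected libraries. It was at 12.1 CPM in control (10.5 to 14), 8.73 in LPS (7.24 to 10.4), 19.2 in siOCLN+LPS (17.2 to 21.4) and 15.3 in the wtOCLN+LPS-labelled library (13.5 to 17.2). LPS was lowest and siOCLN+LPS highest, 2.20-fold above LPS (1.78 to 2.74). The fold in the wtOCLN+LPS-labelled library was 1.75 (1.41 to 2.19).

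TRIM6, which makes free ubiquitin chains that activate the kinase encoded by IKBKE, had 13 counts in control and 23 in LPS, against 10 in siOCLN+LPS and 2 in the wtOCLN+LPS-labelled library. The last was lower than LPS with a ratio of 14.5 and an interval of 3.59 to 127.

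TRIM36, a microtubule-associated member, rested on 26, 48, 13 and 17 counts in control, LPS, siOCLN+LPS and the wtOCLN+LPS-labelled library. It was highest in LPS, 2.12-fold above control (1.29 to 3.55), and 4.65-fold (2.48 to 9.36) and 3.56-fold (2.01 to 6.61) lower in the transfected libraries. TRIM46, which bundles microtubules at the start of axons, was at 3.96 CPM in control and 4.47 in LPS, against 7.50 in siOCLN+LPS and 8.69 in the wtOCLN+LPS-labelled library. It was 1.68-fold (1.23 to 2.31) and 1.94-fold (1.44 to 2.65) above LPS in the transfected libraries. The other 6 listed members with a microtubule-binding COS box stayed under 1 CPM.

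**Figure D4:**
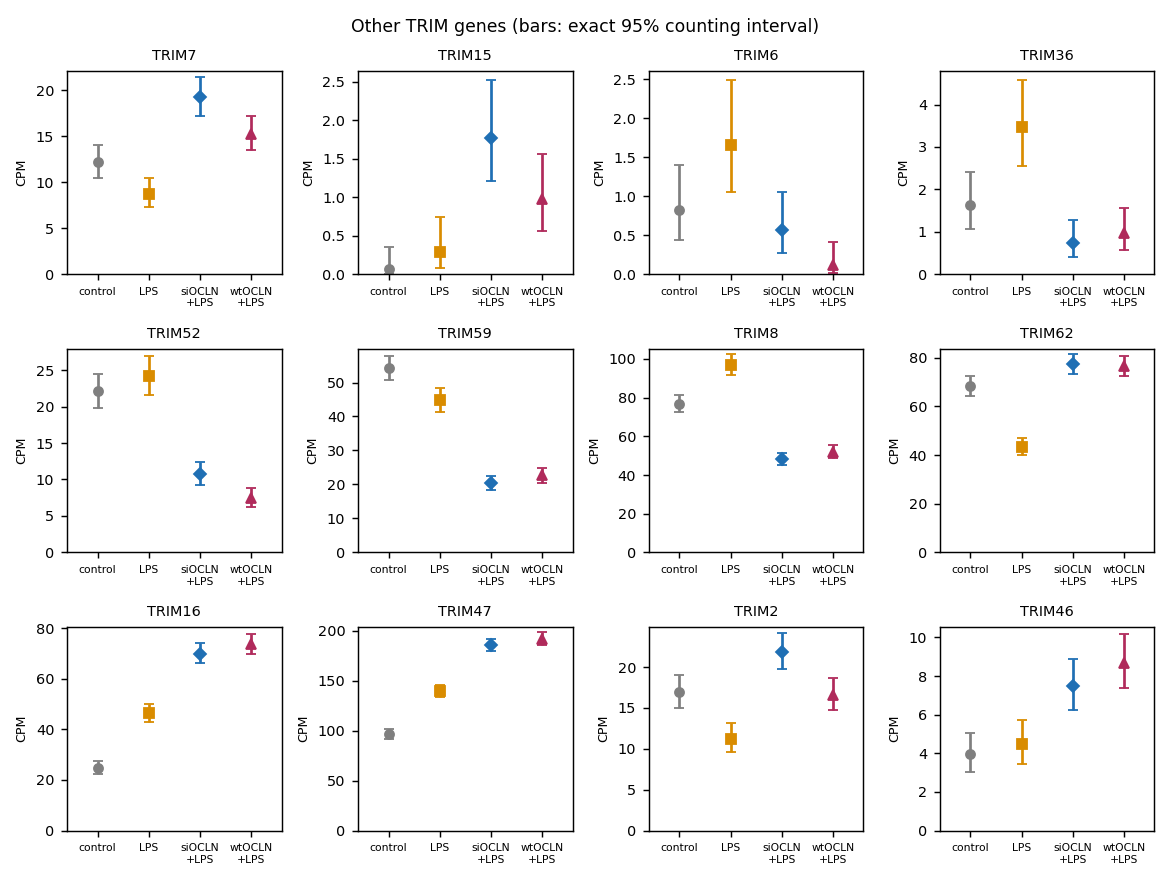
CPM of 12 further TRIM genes in the 4 libraries, with exact 95% counting intervals and axes from 0. TRIM36, TRIM8 and TRIM6 are highest in LPS, TRIM62, TRIM7 and TRIM2 are lowest there, and TRIM52 and TRIM59 are low in both transfected libraries.

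The chromatin members, with a PHD finger and bromodomain, included none that was 2-fold apart in any of the 4 comparisons. TRIM28 was at 456 CPM in control (445 to 466), 443 in LPS (432 to 454), 403 in siOCLN+LPS (394 to 413) and 428 in the wtOCLN+LPS-labelled library (418 to 438). Its sign against LPS turned positive in both transfected libraries with median ratio and TMM scaling. TRIM33, a ligase of SMAD4, was at 113, 97.4, 89.0 and 91.0 CPM, and its sign against LPS turned likewise. TRIM24, a cofactor of nuclear receptors, was at 25.1, 21.6, 14.4 and 15.9 CPM, and TRIM66 at 13.6, 10.5, 7.90 and 7.31 CPM. TRIM24 was 1.51-fold (1.27 to 1.79) and 1.36-fold (1.15 to 1.61) below LPS in the transfected libraries.

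Among members with NHL repeats, TRIM2, a ligase of neurofilaments, was at 16.9 CPM in control (15.0 to 19.1), 11.2 in LPS (9.55 to 13.2), 21.9 in siOCLN+LPS (19.7 to 24.2) and 16.6 in the wtOCLN+LPS-labelled library (14.8 to 18.7). LPS was lowest, 1.5-fold below control (1.23 to 1.85), and siOCLN+LPS was 1.94-fold above LPS (1.61 to 2.36). TRIM2 passed 2-fold there with TMM, median ratio and upper quartile scaling. TRIM3 was at 23.6, 19.3, 16.5 and 16.3 CPM, TRIM32 is given above, and TRIM71 was at 0 counts.

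The members without a RING had no gene 2-fold apart in any of the 4 comparisons with scaling by library total. Besides TRIM14, TRIM16, TRIM16L, TRIM44 and TRIM66, they include TRIM29, a gene of basal epithelial cells. It was at 7.30, 7.72, 10.2 and 10.3 CPM, and 1.33-fold (1.04 to 1.70) and 1.34-fold (1.05 to 1.72) above LPS in the transfected libraries. Several epithelial markers were higher in these libraries too. Of 8 tested, 5 were at least 2-fold higher than LPS in siOCLN+LPS and 4 in the wtOCLN+LPS-labelled library (3.32% of all genes were in each). EPCAM was 2.12-fold (1.22 to 3.77) and KRT5 1.18-fold (1.01 to 1.38) lower in siOCLN+LPS. The summed level of the 9 listed, most of it KRT8, KRT17 and KRT18, was 1529 CPM in control and 1288 in LPS, against 2361 in siOCLN+LPS and 2469 in the wtOCLN+LPS-labelled library. The summed levels of other lists, in the same order, were 70.4, 76.7, 106 and 111 CPM for fibroblast markers (DCN and LUM at 0 to 1 counts) and 17, 17, 4.98 and 7.71 CPM for leukocyte markers, nearly all from CD68. Among the fibroblast markers PDGFRB was at 12.3, 13.8, 49.4 and 55.4 CPM. COL1A1 was at 57.6, 62.7, 56.1 and 55.2 CPM, lower than LPS in both transfected libraries, and the rest stayed under 1 CPM. The part of other cell types or states in these results was not tested. As the RNA is from bulk cultures, fewer cells of a kind and less RNA per cell cannot be told apart.

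Comparing siOCLN+LPS directly with the wtOCLN+LPS-labelled library involved transfected cells alone. By their labels these libraries received different material, siRNA against occludin and wild-type occludin. The kind of material transfected and the level of occludin thus cannot be told apart here. None of 40 TRIM genes tested was at least 2-fold higher or lower, where 0.0763% and 0.290% of all 13109 genes were. The median log2 ratio was -0.04 over the TRIM genes and 0.02 over all genes. Counting intervals placed 3 TRIM genes higher in siOCLN+LPS (7.5%, against 15.1% of all genes), namely TRIM2, TRIM7 and TRIM52. They placed 8 of 40 lower (against 11.9%), namely TRIM5, TRIM13, TRIM14, TRIM21, TRIM22, TRIM25, TRIM28 and TRIM37. Of the 9 interferon-inducible members tested, 5 were among these 8 and none was higher, and the list's median log2 ratio was -0.17. TRIM22 had the lowest log2 ratio at -0.97, followed by TRIM14 at -0.64 and TRIM5 at -0.45. TRIM52 was 1.45-fold higher in siOCLN+LPS (1.15 to 1.83) and TRIM7 1.26-fold higher (1.07 to 1.49).

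Against control, which differs from the transfected libraries in both LPS and transfection, siOCLN+LPS had 3 of 44 TRIM genes at least 2-fold higher (TRIM15, TRIM16 and TRIM22, against 3.94% of all genes) and 1 lower (TRIM59, against 5.44%). The wtOCLN+LPS-labelled library had 2 of 43 higher (TRIM16 and TRIM22, against 3.91%) and 3 lower (TRIM45, TRIM52 and TRIM59, against 4.91%). Counting intervals excluded equal levels for 11 higher and 28 lower TRIM genes in siOCLN+LPS (21.7% and 50.5% of all genes) and for 10 higher and 27 lower in the wtOCLN+LPS-labelled library (20.1% and 52.4%). TRIM36, which was highest in LPS, did not pass 2-fold against control on the log2(CPM + 1) scale in either, at -0.60 and -0.42, though its CPM was 2.20-fold lower in siOCLN+LPS (1.09 to 4.66). TRIM7, which was lower in LPS than in control, did not pass 2-fold in either. TRIM16 was 2.82-fold above control in siOCLN+LPS (2.52 to 3.17) and 2.97-fold in the wtOCLN+LPS-labelled library (2.65 to 3.33).

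TRIM proteins that carry other symbols included the gene farthest apart in LPS. MEFV, which encodes the inflammasome protein pyrin (TRIM20), was at 2.39 CPM in control (1.69 to 3.28), 21.6 in LPS (19.3 to 24.2), 10.3 in siOCLN+LPS (8.85 to 11.9) and 10.2 in the wtOCLN+LPS-labelled library (8.73 to 11.8). It was 9.05-fold higher in LPS than in control (6.44 to 13.0), and the transfected libraries lay between. MID1 (TRIM18), a microtubule-bound ligase, was at 58.4, 62.9, 129 and 150 CPM, which is 2.05-fold (1.89 to 2.22) and 2.38-fold (2.20 to 2.57) above LPS. PML (TRIM19), the organiser of nuclear bodies, was at 79.8, 111, 141 and 169 CPM in the same order, and MID2 (TRIM1) was at 21.3, 15.9, 16.9 and 15.5 CPM.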

How the data were processed

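The authors deposited each of the 4 libraries as whole-number counts per gene symbol (24424 symbols). The authors' tools included TopHat and Cufflinks with build hg19, per the submitters' processing notes; how reads were counted, with which strand setting and gene models, is not given in the sources used here. Counts were divided by library totals to give CPM. Ratios were differences of log2(CPM + 1), genes reaching 1 CPM in at least 1 of the 2 libraries were tested, and 2-fold was the line for a call. Folds of single genes are CPM ratios without pseudocount, with exact 95% Clopper-Pearson intervals, and CPM values have exact Poisson intervals. These intervals cover counting error only. With 1 library per group no test could be fitted, so the planned settings were compared by values alone. The call steps were tested on simulated counts.

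The members and lists were chosen with earlier results of these data known. Values are given in full for genes at least 2-fold apart, the interferon list, the 8 highest levels per kb and up to 3 genes from each other TRIM list (5 from each partner list); further members are given by their values alone and were chosen after these were seen. Promoter windows came from RefSeq (GRCh38.p14) and transcript lengths and exon overlaps from GENCODE 29, a different build from the counts. Tools were Python 3.11.15, NumPy 2.4.6, SciPy 1.17.1, pandas 2.3.3, matplotlib 3.10.9, R 4.3.3 and edgeR 4.0.16 (TMM factors). Results for some listed genes are not reported here.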

Additional observations from a re-analysis of the deposited data

How the results depend on the processing

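Counts of TRIM genes 2-fold apart changed with the settings. Signs turned with scaling only for named genes whose log2 ratio lay between -0.14 and 0.02, such as TRIM28, TRIM33, TRIM34 and TRIM44, and for list medians near 0. In LPS against control, 0 were higher, but 1 was with a pseudocount of 0.1 (TRIM36), 1 each with TMM, median ratio and upper quartile scaling (TRIM25), 3 at 1.5-fold and 2 where the counting interval lay past 1.5-fold; 0 were lower, but 1 was at 1.5-fold. In siOCLN+LPS against LPS, the 3 higher became 1 with a pseudocount of 5 (TRIM22), 6 at 1.5-fold, 0 at 3-fold and 5 by the interval. The 3 lower became 6 with a pseudocount of 0.1, 0 with one of 5, 9 at 1.5-fold, 0 at 3-fold, 6 by the interval and 1 with each of the 3 scalings (TRIM36; the log2 ratios of TRIM52 and TRIM59 went from -1.10 to -0.96 with TMM, just short of 2-fold), and 1 with control as the reference (TRIM59). In the wtOCLN+LPS-labelled library against LPS, the 1 higher became 6 at 1.5-fold, 2 with each of the 3 scalings (TRIM14 added), 3 by the interval and 2 with control as the reference. The 3 lower became 1 with a pseudocount of 5 and 1 with a filter at 5 CPM (TRIM52), 11 at 1.5-fold, 0 at 3-fold and 6 by the interval. In siOCLN+LPS against the wtOCLN+LPS-labelled library, the 0 lower became 2 at 1.5-fold (TRIM14 and TRIM22) and 1 by the interval (TRIM22). The cause of the scaling differences was not tested.

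Depth limits members of few counts (TRIM6, TRIM15 and TRIM36), whose calls also depend on the pseudocount. No paired analysis was possible because each group is a single library.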
